A study of Homo sapiens with 3 samples.

Results

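Ribosome peaks were compared gene by gene between HEK293T cells, a human embryonic kidney line, that expressed FLAG-tagged DDX3X G325E and cells that carried the empty pCDNA3.1 vector. All rows of both deposited peak lists were used, 26899 of the 46819 rows of the series: 11219 from vector and 15680 from G325E. Each row was given a host gene through the RefSeq transcript in its annotation, or through the nearest gene name where no row of the lists paired that transcript with a gene. The 2 lists named 2896 host genes (2022 in vector, 2310 in G325E) of 3580 in the series. A list from cells that expressed FLAG-tagged WT DDX3X (19920 rows, 3006 host genes) is given beside some results. All cells were transfected transiently for 24 h and, per the labels, received harringtonine (2 µg/ml, 90 s) and then cycloheximide (100 µg/ml); the study's methods name cycloheximide alone. The transfected DDX3X was made on top of the endogenous protein. There was 1 library per construct, so no difference below has a replicate check and no p-value is given.

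DDX3X is an X-linked DEAD-box RNA helicase that unwinds structured RNA and takes part in translation initiation, above all on messages whose 5′ untranslated region (5′-UTR) is long or folded. G325E replaces a glycine in its helicase core and occurs in medulloblastoma, a childhood brain tumour. Ribosome profiling sequences the short RNA fragments that ribosomes shield from nuclease, and a peak is a place where such fragments pile up. The lists give where peaks lie but no height, so the number of peaks on a gene stands for how much of it was called, not for how many ribosomes it carried.

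Each row is a short stretch of sequence, and the stretches below show what the comparison rests on. They are the longest coding-exon peaks of at most 60 bases in 4 genes that stood highest in G325E and 3 that stood among the highest in vector, with 0 peaks in the other list, leaving out genes named only by proximity. Sequence is that of GRCh37 on the peak's strand, 5′ to 3′, with G and C in capitals. The G325E peaks are ZIC2 (chr13:100634473-100634527, plus strand, exon 1 of 3), FASN (chr17:80045007-80045064, minus strand, exon 21 of 43), FOXC1 (chr6:1611621-1611673, plus strand, exon 1 of 1) and AKAP12 (chr6:151670217-151670275, plus strand, exon 2 of 3). The vector peaks are HSP90AB1 (chr6:44217798-44217857, plus strand, exon 5 of 12), EEF1A1 (chr6:74228083-74228141, minus strand, exon 6 of 8) and HYOU1 (chr11:118916313-118916366, minus strand, exon 26 of 26).
ZIC2: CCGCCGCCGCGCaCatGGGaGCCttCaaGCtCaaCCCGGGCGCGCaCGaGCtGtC
FASN: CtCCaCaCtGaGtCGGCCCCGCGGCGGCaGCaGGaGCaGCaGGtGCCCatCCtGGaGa
FOXC1: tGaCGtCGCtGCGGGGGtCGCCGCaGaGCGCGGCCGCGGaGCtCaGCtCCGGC
AKAP12: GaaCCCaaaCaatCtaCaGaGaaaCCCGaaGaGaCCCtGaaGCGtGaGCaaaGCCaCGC
HSP90AB1: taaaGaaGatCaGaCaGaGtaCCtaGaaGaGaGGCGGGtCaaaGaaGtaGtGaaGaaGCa
EEF1A1: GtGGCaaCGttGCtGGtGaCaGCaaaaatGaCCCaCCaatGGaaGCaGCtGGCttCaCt
HYOU1: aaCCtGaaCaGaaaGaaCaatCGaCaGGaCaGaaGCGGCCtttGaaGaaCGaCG
G and C made up 72.7% of the ZIC2 peak, 70.7% of the FASN peak, 79.2% of the FOXC1 peak and 52.5% of the AKAP12 peak. In the vector peaks they ranged from 43.3% in HSP90AB1 and 48.1% in HYOU1 to 52.5% in EEF1A1. Over all rows, GC content in the 31 nt around a peak averaged 62.8% ± 13.3 (SD, over 11219 peaks) in vector and 73.2% ± 12.8 (SD, over 15680 peaks) in G325E, against 62.3% in WT DDX3X. This difference between the libraries runs through every comparison below, and the ratios of gene lists and the main shares are therefore also given at matched GC content.

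Median peak length was 29 bases in vector and 30 in G325E. The median listed gene had 4 vector or 6 G325E peaks. The vector list skipped 1952 of its own peak numbers in 1074 stretches of the genome, while the G325E list skipped 0, so a gene absent from the vector list may have had rows there that are not in the list analysed here. Of the 874 genes listed in G325E and not in vector, 271 lay in such a stretch.

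The comparison asked which genes took a larger or smaller share of the peaks under G325E. Peaks on either strand were counted, and peaks per gene were scaled to 10000 rows of each list. Among the 1071 genes with at least 10 peaks in the 2 lists together, 238 (22.2%) were at least 2-fold higher in G325E and 189 (17.6%) at least 2-fold lower, with 644 in between. The log2 ratio of G325E to vector, with a pseudocount of 0.5 peaks, had a median of -0.19, and scaling by that median in place of list totals gave 271 higher and 128 lower. Of the 238, 163 had 0 vector peaks. Of these, 45 lay where the vector list skips numbers, against 1362 of all 2896 genes. A gene counts as lying there if its span touches a gap or a vector peak that borders it. Genes with vector peaks meet this more readily, so these shares cannot be compared. Genes at the limits had ratios such as 1.10 for CLPP (3 vector and 10 G325E peaks, just inside) and 0.99 for RPLP1 (4 and 12, just outside). At the lower limit stood RPL29 (16 and 11, inside) and PTMS (10 and 7, -0.97, outside).

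**Figure D1:**
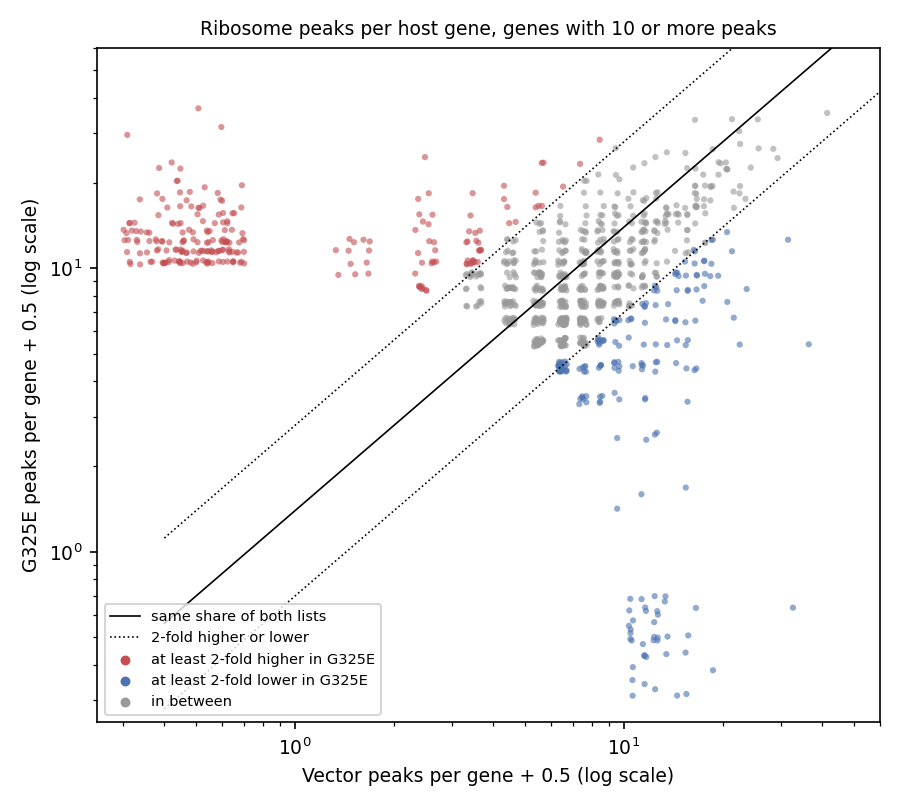
Each point is 1 of 1071 genes with at least 10 peaks, by its vector peaks (x) and G325E peaks (y), each plus 0.5 and on a log scale, with a small random shift to separate equal values. The solid line marks the same share of both lists and the dotted lines 2-fold either way. The 163 genes absent from the vector list form the cloud at the left edge, apart from the rest.

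Many of these genes entered or left a list whole. Of the 504 genes with at least 10 G325E peaks, 163 (32.3%) had 0 vector peaks, 26 had 1 or 2, 45 had 3 or 4 and 270 had 5 or more. Of the 270 genes with at least 10 vector peaks, 39 (14.4%) had 0 G325E peaks, 5 had 1 or 2, 15 had 3 or 4 and 211 had 5 or more. Zero was thus far more frequent than the small counts beside it in both directions. The same break appeared between G325E and WT DDX3X, where 128 of 618 genes with at least 10 WT peaks had 0 G325E peaks and 23 had 1 or 2. It was nearly missing from 1 direction only: of the 270 genes with at least 10 vector peaks, 3 had 0 WT peaks.

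**Figure D2:**
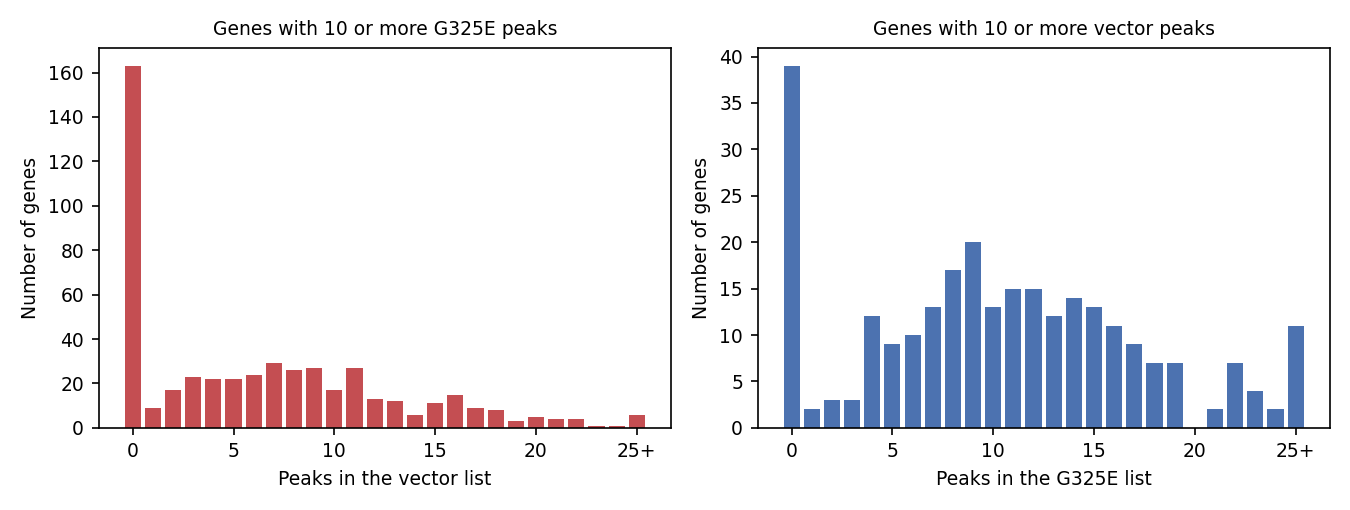
Bars count genes with at least 10 peaks in 1 list by their number of peaks in the other, G325E genes by vector peaks on the left and vector genes by G325E peaks on the right. Both panels have an isolated bar at 0 (163 and 39 genes) and a broad hump from about 3 peaks upward.

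A gene with 0 peaks in 1 list and 10 in the other is past 2-fold by construction. Genes listed once and genes listed in both are therefore described separately, except in the lists of related genes further below, which pool them. Genes of both lists numbered 1436 and held 8690 vector peaks (77.5% of that list) and 10038 G325E peaks (64.0%). Genes listed in G325E alone numbered 874, or 30.2% of all genes of the 2 lists, with 5606 peaks (35.8% of the G325E list). Genes listed in vector alone numbered 586 (20.2%), with 2433 peaks (21.7% of the vector list). WT DDX3X cells listed 91.0% of the vector-only genes (533 of 586) and 96.6% of the shared genes, but 46.0% of the G325E-only genes (402 of 874). The WT list, like the vector list, skips peak numbers and holds 0 rows placed in repeats. The G325E list skips no numbers and holds 290 such rows. Whether this bears on the shares was not tested.

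The genes that stood highest in G325E all had 0 vector peaks. ZIC2, a zinc finger factor of forebrain development, had 36 G325E peaks and 12 WT peaks. Of the 36, 19 lay in exons, 8 in the promoter-TSS class, which holds peaks next to a transcription start site, and 1 in the 5′-UTR class. Against a floor of 3 peaks in the vector list, ZIC2 held 8.59-fold more per list row. Such ratios to a floor are no minimum, since 0 was far more frequent than the small counts beside it. FASN, the fatty acid synthase, had 31 G325E peaks, 29 of them in exons, and 45 WT peaks, 7.39-fold above the floor. FOXC1, a forkhead factor encoded by a single exon, had 29 (14 in promoter-TSS, 13 in the exon) and 7 in WT, 6.92-fold above the floor. AKAP12, a scaffold that binds protein kinase A, had 23 and 33 in WT, 5.49-fold above the floor. WT peaks are unscaled here and below, from the longest of the lists. FASN and AKAP12 held fewer peaks in G325E than in WT, while ZIC2 and FOXC1 held more. None of these 4 genes lay in a stretch of skipped vector numbers. On the strand opposite to the gene lay 4 G325E peaks each of ZIC2 and FOXC1 and 1 each of FASN and AKAP12.

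The next genes held 18 to 22 G325E peaks. MTSS1L, a membrane-bending adaptor, and ZBTB10, a zinc finger repressor, had 22 each, and RANBP9, a scaffold of a ubiquitin ligase, and TAF4, a subunit of the general transcription factor TFIID, had 20 each. These 4 genes lay where vector numbers are skipped. On the strand opposite to the gene lay 7 G325E peaks of MTSS1L, 2 of ZBTB10, 7 of RANBP9 and 4 of TAF4. CDKN1C, an inhibitor of cyclin-dependent kinases, had 19 peaks, and HDAC4, a class II histone deacetylase, had 18, both with 0 in WT as well. HDAC4 had no exon peak, with 7 in promoter-TSS, 6 in the 5′-UTR class and 5 in introns. On its canonical transcript, 0 lay in the 5′-UTR or coding sequence. RAVER1, an hnRNP-like splicing co-factor, had 18, with 7 in WT, although 4 of the 18 rows carried ICAM3. On the strand opposite to the gene lay 4 of the HDAC4 peaks and 3 of the RAVER1 peaks. Rows filed under RENBP (19 G325E, 15 WT) all carried a transcript of its neighbour HCFC1, a cell-cycle host factor, in their annotation and were named for RENBP by proximity alone, again where vector numbers are skipped.

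Other genes stood highest in vector and had 0 G325E peaks. HSP90AB1, the constitutive cytosolic HSP90, had 16 vector and 23 WT peaks, 15 of the 16 in exons, 7.45-fold above a floor of 3 peaks in the G325E list. EEF1A1, which delivers aminoacyl-tRNA to the ribosome, had 15 and 23, and HYOU1, a chaperone of the endoplasmic reticulum, had 15 and 19 (each 6.99-fold above that floor). RPL7, a protein of the large ribosomal subunit, had 13 and 15. HSP90AB1, EEF1A1 and RPL7 have close copies elsewhere in the genome, and the study describes its reads as uniquely mapped, so their counts are uncertain where the copies are identical.

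PELP1, a nuclear receptor co-regulator, had 15 vector and 17 WT peaks, and RCN1, a calcium-binding protein of the endoplasmic reticulum, had 13 in each. SCO2, a copper chaperone for cytochrome c oxidase, had 13 and 28. SESN2, a stress-induced inhibitor of mTORC1, had 13 vector peaks, 8 of them in the 5′-UTR class, and 9 in WT. ANO8, a membrane tether of the anoctamin family, had 12 in each. Rows filed under C16orf93 (18 vector, 8 WT) all carried a transcript of the ubiquitin ligase RNF40. Rows filed under SNORA67 (14 vector, 18 WT), a small nucleolar RNA, carried SNORA67 in 11 rows and CD68 in 3. The G325E list skipped no numbers, so none of these absences falls in a gap of its numbering.

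Among the 869 genes with at least 10 peaks that both lists named, 75 (8.63%) were at least 2-fold higher in G325E and 150 (17.3%) at least 2-fold lower, around a median log2 ratio of -0.30. The exact 95% counting interval of the ratio, which treats peaks as independent, left out 0 for 23 of the 75 and 55 of the 150. Most single-gene differences in this group were therefore within counting error. Of the 75, 56 lay in stretches where the vector list skips numbers, against 411 of the 644 in between and 75 of the 150. A vector peak bordering a gap is enough for this, so these shares cannot show how many rows are missing. The highest ratios rested on 1 or 2 vector peaks. TBX1, a T-box factor of pharyngeal development, had 2 vector, 0 WT and 24 G325E peaks (log2 ratio 2.81, interval 1.09 to 6.23), 13 in exons and 11 in introns. CHD7, a chromatin remodeller, had 1, 1 and 12 (2.58, 0.34 to 8.52), with 7 of the 12 in promoter-TSS. GNB1, a G-protein beta subunit, had 1, 6 and 12 (2.58, 0.34 to 8.52). USP10, a deubiquitinase that binds G3BP, had 2, 12 and 18 (2.40, 0.62 to 5.84), 10 of the 18 in exons. MICALL1, a regulator of endosome recycling, had 2, 12 and 17 (2.32, 0.53 to 5.76). On the strand opposite to the gene lay 6 G325E peaks of TBX1, 8 of CHD7, 2 of GNB1, 3 of USP10 and 7 of MICALL1. These genes and those of the next paragraph were chosen for their ratios after the values were seen, since the naming rule had filled both ends with genes listed once.

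The lowest ratios of shared genes rested on more vector peaks. SP1, a zinc finger factor that binds GC boxes, had 15 vector, 21 WT and 1 G325E peak (log2 ratio -3.85, interval -9.79 to -1.69), all in exons. SNRPD3, a Sm core protein of the spliceosome, had 11, 14 and 1 (-3.42, -9.37 to -1.16), although 6 of its 12 rows carried the neighbouring GUCD1. SF3B2, a subunit that contacts the branch point, had 22, 38 and 5 (-2.52, -4.38 to -1.18), with exon peaks going from 18 to 5 and promoter-TSS peaks from 3 to 0. MORF4L1, a chromodomain protein of the NuA4 complex, had 12, 13 and 2 (-2.80, -6.27 to -0.90). HDAC1, a class I histone deacetylase, had 11, 15 and 2 (-2.68, -6.16 to -0.75). SMARCA4, the BRG1 ATPase of SWI/SNF, had 16, 20 and 4 (-2.36, -4.52 to -0.85). Rows filed under VHLL (12, 18 and 2) carried transcripts of CCT3, a subunit of the TRiC chaperonin, and rows filed under OR4F3 (36, 42 and 5) carried no transcript and were nearest to it. Every interval here lay below 0.

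The 3 groups of genes differed in their sequence. Coding GC content, on the GENCODE canonical transcript, had a median of 55.8% in the genes listed in G325E alone (quartiles 47.8 to 62.1, values for 807 of 874), 56.2% in the shared genes (1306 of 1436) and 52.0% in the vector-only genes (45.8 to 58.8, 482 of 586). The 5′-UTR had a median length of 161 nt, 103.5 nt and 98 nt in that order, and a median GC content of 73.4%, 69.3% and 65.8%. The coding sequence had a median of 1443 nt in the G325E-only genes against 939 nt in the vector-only genes. Among the tested genes of both lists 5′-UTR length followed the same order, with a median 5′-UTR of 153 nt in those at least 2-fold higher, 106 nt in those in between and 87 nt in those at least 2-fold lower. These are gene properties only, and the quartiles of the groups overlap widely.

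Functions were compared through 41 lists of related genes, each summed over all its members. Of the 40 lists with at least 20 peaks, 13 took a larger share of the G325E list than of the vector list and 27 a smaller share. The 95% counting interval of the summed ratio lay above 0 on the log2 scale for 6 and below 0 for 18. Because peaks of a gene come and go together, these intervals are too narrow as a measure of error. With peaks compared within classes of GC content, 18 of the 40 had a ratio above 1 and 5 changed side. The 5 were histones (log2 -0.30 to 0.27), large-subunit ribosomal proteins (-0.82 to 0.04), actins and tubulins (-0.40 to 0.04), aminoacyl-tRNA synthetases (-0.26 to 0.09) and kidney epithelial markers (-0.07 to 0.01). In the last list only VIM and CDH2 had peaks, and both are also mesenchymal markers. Where the share of tested members past 2-fold is given below, it is to be read against the 22.2% higher and 17.6% lower of all 1071 tested genes. These counts and medians pool genes of both lists with genes listed once, which are past 2-fold by construction. Among tested genes of both lists the shares were 8.63% and 17.3%.

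**Figure D3:**
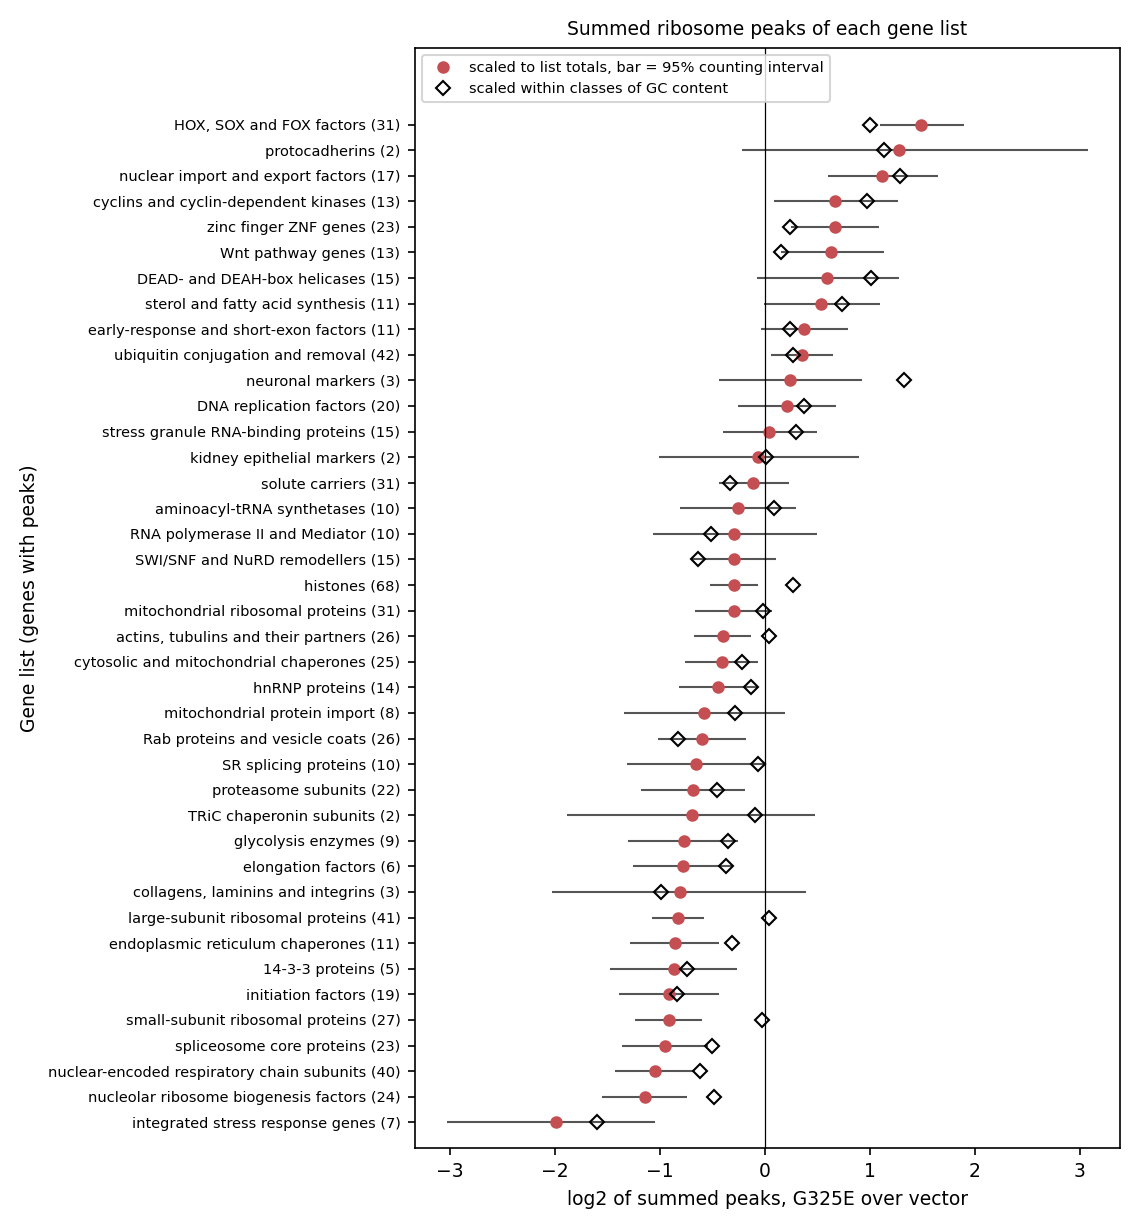
Points give the log2 ratio of summed peaks, G325E over vector, for the 40 gene lists with at least 20 peaks, with the number of genes that had peaks in parentheses. Bars are exact 95% counting intervals, and open diamonds give the ratio with peaks compared within classes of GC content. HOX, SOX and FOX factors (1.49) and nuclear import and export factors (1.11) lie near the top by either measure, while both ribosomal protein lists move from below -0.8 to about 0 in the diamonds.

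Homeobox, SOX and forkhead factors, which set cell identity in development, had the highest ratio of the 40 lists by list totals. At matched GC content neuronal markers (1.33), nuclear import and export factors (1.29), protocadherins (1.14) and DEAD- and DEAH-box helicases (1.01) stood above them. Their 31 genes summed to 66 vector, 88 WT and 259 G325E peaks, 2.81-fold more per list row in G325E (log2 1.49, interval 1.09 to 1.90, and 1.00 at matched GC content). Of the 31, 18 were listed in G325E alone, 10 in both and 3 in vector alone, against 30.2% and 20.2% of all genes in G325E or vector alone. Among 15 tested, 9 were at least 2-fold higher and 0 lower, against 22.2% and 17.6% of all tested genes. The median log2 ratio was 1.28 against -0.19 over all genes. Members with 0 vector peaks, such as FOXC1, FOXE1, FOXK2, HOXD11 and HOXD13, are among the 9 by construction. FOXE1 had 0 vector and 14 G325E peaks, FOXK2 0 and 13, and HOXD11 0 and 12, all with 0 in WT, while HOXD13 had 0, 5 WT and 12. FOXF2 had 4 in vector, 4 in WT and 14 in G325E. FOXD1 had 9 vector, 8 WT and 15 G325E peaks (log2 ratio 0.22) and SOX4 had 8, 3 and 14 (0.29), and FOXK1 stood lowest with 8, 0 and 6 (-0.87). Mean GC content around these peaks was 72.2% in vector and 78.1% in G325E.

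Nuclear import and export factors, which carry cargo through the nuclear pore, had 42 vector, 130 WT and 127 G325E peaks over 17 genes, 2.16-fold more per row (log2 1.11, 0.60 to 1.65, and 1.29 at matched GC content). Of 8 tested, 4 were higher and 1 lower, against 22.2% and 17.6% of all tested genes. The median log2 ratio was 2.25, or 0.92 with genes absent from 1 list set at the floor of 3 peaks there. All 4 had 0 vector peaks and were past 2-fold by construction. They were RANBP9 (0, 17 WT and 20), NUP62, a pore protein (0, 12 and 16), RANBP3, an export co-factor (0, 14 and 11), and NUP50 (0, 1 and 10). The lower gene was the importin KPNB1 with 7 vector, 19 WT and 3 G325E peaks (log2 ratio -1.58, interval -4.29 to 0.43). RANBP1 had 14 in each list. RANBP9, NUP62 and RANBP3 were also listed in WT. RANBP9 is in this list by its name as a RAN-binding protein and is better known as a ligase scaffold than as a transport factor.

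Several smaller gains rested on genes that the vector list lacks. Zinc finger ZNF genes had 70 vector and 155 G325E peaks (log2 0.66, 0.25 to 1.09, and 0.24 at matched GC content), with 4 higher and 0 lower of 8 tested. ZNF282 led with 0 vector, 9 WT and 18 G325E peaks, while ZNF703 (22, 23 and 27) and ZNF503 (15, 18 and 25) were close to the same share. Wnt pathway genes had 53 and 115 (0.63, 0.15 to 1.13, and 0.15 at matched GC content), with 3 higher of 8 tested: DVL1, a transducer of the pathway, CSNK1G2, a casein kinase, and LRP5, a co-receptor, each with 0 vector and 13 G325E peaks. CTNNB1, which encodes beta-catenin, had 4 vector, 7 WT and 12 G325E peaks. Cyclins and cyclin-dependent kinases had 37 and 82 (0.67, 0.09 to 1.27, and 0.97 at matched GC content), with 1 higher of 4 tested, CDK2AP1 (0 and 14), again near the share of all tested genes. Ubiquitin conjugation and removal had 153 and 273 over 42 genes (0.35, 0.06 to 0.65, and 0.27 at matched GC content), with 5 higher and 3 lower of 20 tested, near the shares of all tested genes. UCHL1, a neuronal deubiquitinase, had 0, 13 WT and 14 peaks, and UBE3A, the ligase lost in Angelman syndrome, had 0, 0 and 12, whereas UBE2M had 11, 9 and 6. CDK2AP1 and UCHL1 lay where vector numbers are skipped.

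Sterol and fatty acid synthesis had 43 vector, 113 WT and 87 G325E peaks (log2 0.53, -0.01 to 1.10, and 0.73 at matched GC content), of which FASN gave 31 in G325E. SQLE, squalene epoxidase, had 2, 13 and 15 (log2 ratio 2.15), and its G325E peaks comprised 6 in promoter-TSS and 9 in the 5′-UTR with 0 in exons, while both vector peaks lay in exons. EBP, a sterol isomerase, went the other way with 9, 5 and 1 (-3.15). Early-response factors had 79 and 143 (0.37, -0.03 to 0.79, and 0.24 at matched GC content), with 3 higher and 1 lower of 9 tested. JUND and CEBPA, with 13 G325E peaks each, had 0 in vector and in WT, although 7 of the CEBPA rows carried CEBPA-DT. CEBPA lay where vector numbers are skipped. MYC had 18, 27 and 12 (log2 ratio -1.05, -2.25 to 0.07), 18 of its vector and 11 of its G325E peaks in exons. CEBPB had 10, 8 and 22 (0.62). Stress granule proteins as a list had 73 and 105 (log2 0.04, -0.40 to 0.49, 0.30 at matched GC content and 0.52 without genes where vector numbers are skipped), with USP10 higher and TIAL1, a relative of TIA1, at 10 vector, 12 WT and 0 G325E peaks.

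Ribosomal proteins took a smaller share under G325E, yet not at matched GC content. The 41 genes of the large subunit had 308 vector, 339 WT and 243 G325E peaks (log2 -0.82, -1.07 to -0.58), and the 27 of the small subunit had 193, 212 and 143 (-0.92, -1.24 to -0.60). Within classes of GC content the ratios became 0.04 and -0.02. Of the tested genes, 7 of 27 large-subunit genes were lower and 1 higher, and 8 of 17 small-subunit genes were lower and 0 higher, with median log2 ratios of -0.66 and -0.82. No gene of either list was listed in G325E alone, and 9 large-subunit and 3 small-subunit genes were listed in vector alone. RPL7 and RPL36A had 13 and 9 vector peaks and 0 in G325E, and RPS6 had 16 and 9 (-1.28, -2.67 to -0.05). RPL8 (22 and 18), RPL6 (17 and 15) and RPS15 (12 and 13) lay between the limits. RPL7A, with 2 vector and 8 G325E peaks in promoter-TSS, was the higher gene, and 6 of its 10 rows carried the adjacent MED22. Peaks of the large-subunit genes averaged 56.5% GC in vector and 60.9% in G325E, both below the mean of all rows.

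Initiation factors had 90 vector, 125 WT and 67 G325E peaks (log2 -0.91, -1.39 to -0.44, and -0.84 at matched GC content), with 3 lower and 0 higher of 6 tested. EIF3G, a subunit of the eIF3 complex, had 14, 12 and 9 (-1.09, -2.51 to 0.19), and EIF3K, another, had 7, 5 and 3 (-1.58, -4.29 to 0.43). EIF4G3, a scaffold of the cap-binding complex, had 9, 7 and 13 (0.02). Elongation factors had 86 and 70 (-0.78, -1.26 to -0.31, and -0.37 at matched GC content), where EEF2, the translocase, had 41, 34 and 35 (-0.71, -1.40 to -0.02), 32 and 31 of them in exons. EEF1A2, the brain and muscle form of the factor that EEF1A1 encodes, had 0, 10 and 12, opposite to EEF1A1. Of 5 elongation factors tested, 2 were lower and 1 higher. Aminoacyl-tRNA synthetases had 53 and 62 (-0.26, -0.81 to 0.30), with 0 of 5 tested past 2-fold.

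Nucleolar ribosome biogenesis factors had 136 vector, 275 WT and 86 G325E peaks (log2 -1.14, -1.55 to -0.74, and -0.48 at matched GC content). Of 7 tested, 4 were lower and 0 higher. PES1, needed for large-subunit maturation, had 11, 17 and 0, NOLC1, a nucleolar chaperone, had 15, 28 and 8 (-1.35), and TCOF1, whose loss causes Treacher Collins syndrome, had 17, 40 and 10 (-1.22). GAR1 and RRP1B were listed in G325E (9 and 8) and not in vector. Spliceosome core proteins had 120 and 87 (-0.95, -1.36 to -0.54, and -0.50 at matched GC content) but were mixed, with 2 lower (SF3B2, SNRPD3) and 2 higher (SF3A1, with 3, 17 and 12, and U2AF1, with 2, 1 and 8) of 8 tested. U2AF2 had 19, 26 and 21 (-0.34). The hnRNP proteins had 121 and 124 (-0.45, -0.82 to -0.07, and -0.13 at matched GC content), with 1 higher, HNRNPUL2 (1, 10 and 11), and 2 lower of 12 tested.

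Nuclear-encoded respiratory chain subunits had 148 vector, 162 WT and 100 G325E peaks over 40 genes (log2 -1.05, -1.43 to -0.67, and -0.62 at matched GC content), with 5 lower and 0 higher of 9 tested. NDUFB7, of complex I, had 15, 14 and 3 (-2.63), although 8 of its 18 rows carried its neighbour TECR, and ATP5F1, of ATP synthase, had 12, 11 and 4 (-1.96, -4.16 to -0.35). Mitochondrial ribosomal proteins had 117 and 133 (-0.30, -0.67 to 0.07, and -0.02 at matched GC content) and mitochondrial protein import genes 32 and 30 (-0.58, -1.34 to 0.19, and -0.29), and both intervals held 0. Proteasome subunits had 77 and 67 (-0.68, -1.18 to -0.19, and -0.46 at matched GC content), with 4 lower and 0 higher of 7. PSMD8 had 14, 13 and 6 (-1.64). Endoplasmic reticulum chaperones had 109 and 84 (-0.86, -1.29 to -0.44, and -0.32 at matched GC content), with HSPA5, the luminal HSP70 known as BiP, at 23, 28 and 8 (-1.95, -3.38 to -0.80). Its exon peaks went from 19 to 4 while its 2 promoter-TSS and 2 5′-UTR peaks were matched by 2 and 2. TXNDC5, a disulfide isomerase, had 6, 11 and 19 (1.10, -0.20 to 2.79), and 14 of the 19 lay in promoter-TSS against 1 of the 6. Of 7 endoplasmic reticulum chaperones tested, 3 were lower and 1 higher.

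Cytosolic and mitochondrial chaperones had 138 vector and 145 G325E peaks (log2 -0.41, -0.76 to -0.06, and -0.22 at matched GC content), with 4 lower and 1 higher of 9 tested. HSP90AB1 and HSP90AA1 (16, 32 and 6) were lower, BAG6 was listed at 0, 16 and 12, and the stress-inducible HSPA1A (14, 15 and 16) and HSPA1B (19, 18 and 23), which are near-identical copies, lay between. Glycolysis enzymes had 71 and 58 (-0.77, -1.30 to -0.25, and -0.35 at matched GC content), although ALDOA had 20, 28 and 22 (-0.35). Of 4 tested, 1 was lower and 0 higher. The 14-3-3 proteins had 56 and 43 (-0.86, -1.47 to -0.26, and -0.74 at matched GC content), with YWHAE lower at 15, 17 and 8. Of 4 tested, 2 were lower and 0 higher. Genes of the integrated stress response, which answers eIF2α phosphorylation, had the lowest ratio of the lists with at least 5 genes, with 37 vector, 34 WT and 13 G325E peaks (-1.99, -3.03 to -1.05, and -1.60 at matched GC content). SESN2 had 13, 9 and 0 and DDIT3 had 8, 8 and 0, while ATF4 had 7, 9 and 5 (-0.93, -2.97 to 0.90). Of 2 tested, 1 was lower, SESN2, which is past 2-fold by construction. All 8 vector rows of DDIT3 were filed there by proximity, lay on the opposite strand in the TTS class, next to a transcription end, and placed 0 peaks in its coding sequence.

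Where the peaks lay differed with the group of genes. In the shared genes, the promoter-TSS and 5′-UTR classes together held 31.1% of vector peaks (2701 of 8690, 95% Wilson interval 30.1 to 32.1) and 39.6% of G325E peaks (3977 of 10038, 38.7 to 40.6), and the exon class held 47.6% and 38.8%. In the genes listed in G325E alone, the first 2 classes held 50.3% (2821 of 5606, 49.0 to 51.6) and exons 30.0%. In the genes listed in vector alone they held 18.3% (446 of 2433, 16.8 to 19.9) and exons 58.2%. All these shares rest on libraries that differ in GC content around peaks, and the difference of 8.54 points in the shared genes became -0.08 points when G325E peaks were weighted to the GC classes of the vector list.

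**Figure D4:**
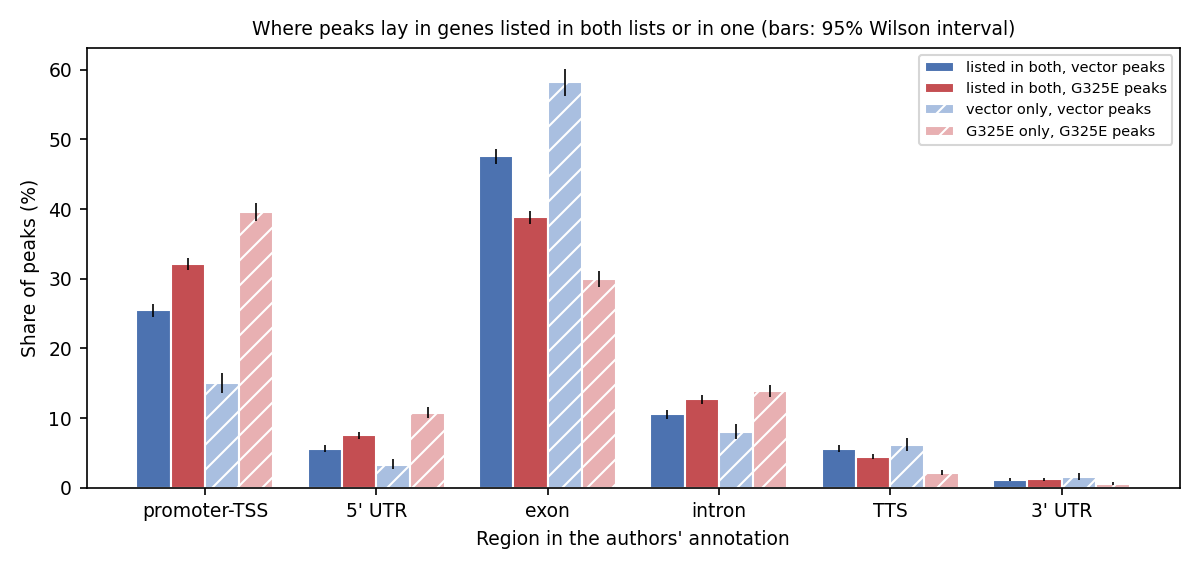
Bars give the share of peaks (%) in 6 regions of the authors' annotation, for vector and G325E peaks on the 1436 shared genes and for genes listed in vector or G325E alone, with 95% Wilson intervals. Promoter-TSS shares step up from vector-only genes through shared genes (25.5% and 32.1%) to G325E-only genes (39.5%), and exon shares step down.

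Within coding exons the same gradient held. In exon-class rows of transcripts with at least 4 exons, the first exon held 12.7% of vector peaks and 20.7% of G325E peaks on the shared genes, 53.6% (650 of 1213) on the G325E-only genes and 4.46% (55 of 1233) on the vector-only genes. On canonical transcripts, the first of 5 equal parts of the coding sequence held 26.7% of vector and 33.8% of G325E coding peaks on shared genes, 53.3% on G325E-only genes and 24.4% on vector-only genes. The last part held 18.6%, 15.7%, 6.08% and 19.5% in that order. Coding peaks of genes found in the G325E list alone thus lay mostly in the first part of the coding sequence. Coding peaks of genes found in vector alone lay along its length. Coding peaks were 32.3% (1727 of 5341) of the G325E-only peaks placed relative to canonical transcripts, and 51.8% (1097 of 2118) of the vector-only peaks. The shares by exon and by part were not matched for GC content. The 5′-UTR of the canonical transcript held 9.28% of vector and 13.5% of G325E peaks on shared genes, 22.3% on G325E-only genes and 6.04% on vector-only genes.

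Single genes varied in where their peaks lay, and the shares below were not matched for GC content. In the 142 genes for which both lists held 10 peaks or more, the combined promoter-TSS and 5′-UTR share was higher in G325E in 66, lower in 42 and equal in 34, of which 24 had no such peak in either list. It was at least 10 points higher in 40 and at least 10 points lower in 15, and the median difference was 0. HNRNPD, which binds AU-rich elements, went from 3 of 16 vector peaks to 11 of 14 G325E peaks in these classes while its exon peaks went from 10 to 2. IRF2BP2, a transcriptional co-repressor, went from 1 of 11 to 13 of 23 with 10 exon peaks in each list. SET, a histone chaperone, went from 1 of 10 to 8 of 14, JUN, the AP-1 factor, from 2 of 15 to 13 of 22, and UBTF, a factor of RNA polymerase I, from 0 of 16 to 10 of 22. Mean GC content around the peaks of these genes was higher in G325E in each. It went from 51.8% to 74.0% in HNRNPD, from 77.4% to 83.0% in IRF2BP2 and from 42.3% to 66.8% in SET. In JUN it went from 63.4% to 65.7% and in UBTF from 74.0% to 81.7%. On the other strand than the gene lay 13 G325E peaks of UBTF, 7 of IRF2BP2 and 1 each of HNRNPD, SET and JUN. The number of exon peaks was thus equal in IRF2BP2 and lower in HNRNPD. The opposite was seen in ARHGDIA (10 of 21 to 1 of 16), REPIN1, a zinc finger gene (9 of 10 to 7 of 14), and MDM2, the p53 ligase (9 of 11 to 6 of 11).

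Peaks were also compared by position. Of all G325E peaks, 34.3% (5380 of 15680) overlapped a vector peak by at least 1 base on the same strand, and 46.4% of vector peaks (5207 of 11219) overlapped a G325E peak. On the shared genes the shares were 53.3% and 59.5%. G325E peaks that overlapped none averaged 76.0% GC there, against 66.5% for those that did, and vector peaks that overlapped none averaged 61.4% against 66.3%. By region, 69.7% of G325E exon peaks lay on a vector peak, but 43.9% of promoter-TSS, 49.5% of 5′-UTR and 24.3% of intron peaks did. Of vector peaks, 62.3% in exons, 63.0% in promoter-TSS and 78.6% in the 5′-UTR class lay on a G325E peak. Most early vector peaks of the shared genes thus lay on a G325E peak, and exon peaks of G325E were mostly at positions already listed in vector. Per 10000 rows of each list, promoter-TSS peaks on these genes went from 1974 in vector to 2055 in G325E. The 5′-UTR class went from 433 to 481 and exons from 3685 to 2484. These rates use whole-list totals, of which the shared genes held 77.5% in vector and 64.0% in G325E. As counts, promoter-TSS peaks on these genes were 2215 and 3223, 5′-UTR class peaks 486 and 754, and exon peaks 4134 and 3895. Overlap by region was not matched for GC content. Of G325E peaks on shared genes, 77.7% under 50% GC lay on a vector peak, and 29.2% from 80% GC upward.

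**Figure D5:**
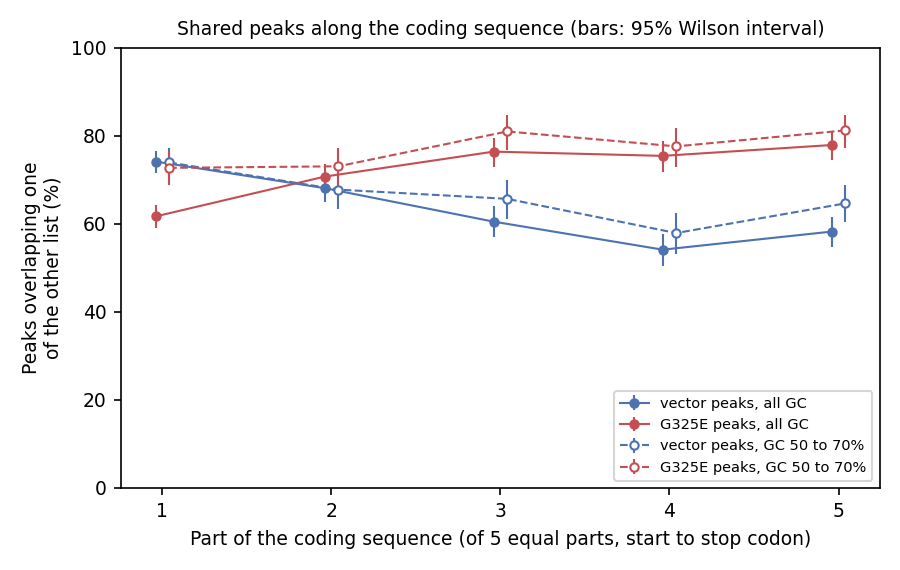
Points give the share (%) of coding peaks on the shared genes that overlap a peak of the other list, by 5 equal parts of the canonical coding sequence from start to stop codon, with 95% Wilson intervals. Filled points use all peaks and open points those with 50 to 70% GC. The vector line goes down from 74.1% to 58.2% and the G325E line goes up from 61.7% to 77.9%.

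Along the coding sequence, the share of vector peaks met by a G325E peak was 74.1% in the first of the 5 parts (840 of 1133, 71.5 to 76.6), 68.1% in the second, 60.5% in the third, 54.1% in the fourth and 58.2% in the last (460 of 790, 54.8 to 61.6). Vector peaks averaged 65.1% GC in the first part and 57.1% in the last. Among vector peaks with 50 to 70% GC the shares were 73.9%, 67.8%, 65.7%, 57.9% and 64.6%, so a smaller step from first to last remained. For G325E peaks the shares ran the other way, from 61.7% in the first part to 77.9% in the last, and from 72.7% to 81.2% among those with 50 to 70% GC. Retention also followed GC content itself: 36.2% of vector peaks on shared genes with under 50% GC met a G325E peak, 55.6% with 50 to 60%, and 65.8%, 66.2% and 66.0% in the classes above.

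The transfected gene was examined in each list, where peaks cannot tell WT from G325E. DDX3X had 0 vector peaks, 32 WT peaks and 9 G325E peaks, all 9 in exons, and it lay in a stretch of skipped vector numbers, so its vector rows may be incomplete. Among 15 DEAD- and DEAH-box helicase genes, the list had 29 vector, 120 WT and 61 G325E peaks (log2 0.59, -0.07 to 1.28, and 1.01 at matched GC content), of which 9 in G325E and 32 in WT were DDX3X. DDX54, a nucleolar helicase, had 0, 1 and 11. The labels call the cells neuronal. Of neuronal markers, NEFM (16 vector, 19 WT and 33 G325E peaks), NEFL (7, 10 and 13) and TUBB3 (8, 6 and 5) had peaks, of kidney and mesenchymal markers VIM (18, 20 and 19) and CDH2 (0, 11 and 5), and of blood and fibroblast markers 0 genes. CDH2 lay where vector numbers are skipped. Neuronal markers summed to 31 vector and 51 G325E peaks (log2 0.24, -0.44 to 0.93), and the ratio was 1.33 at matched GC content and -1.16 without genes where vector numbers are skipped, so its direction depends on the setting.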

How the data were processed

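HEK293T cells with vector, WT DDX3X or DDX3X G325E gave 1 ribosome profiling library each. As the study describes it, the authors trimmed adapters with cutadapt, dropped reads under 21 bp, aligned with BWA 0.5.5 to NCBI Build 37 (hg19) and transcript databases, removed duplicates, called peaks per library from base coverage and annotated them with HOMER (version not given in the sources used here). The deposited values are peak positions and annotations with no height or count, so the depth behind a peak is unknown. By the study's own account, mapped reads after duplicate removal were fewest for G325E and most for WT. Removing duplicates without molecular identifiers limits the tallest positions.

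Host genes came by RefSeq id for 8710 vector and 13266 G325E rows and by nearest name for 2413 and 2378. Of 8396 rows with an unpaired id found in the RefSeq table, over all 3 lists, 61.6% carried another gene than the nearest. This is stated for some of the genes named. Ratios used peaks per 10000 rows, a pseudocount of 0.5, a minimum of 10 peaks and a limit of 2-fold, with exact binomial and Wilson 95% intervals that cover counting error only. A floor is 3 peaks, 0.0267% of vector and 0.0191% of G325E rows. GC content was that of 31 nt of GRCh37 around the midpoint. Transcripts were GENCODE 44 canonical, lifted to GRCh37, and all 46609 rows on nuclear chromosomes lay within its ends. Python 3.11.15, numpy 2.4.6, pandas 2.3.3, scipy 1.17.1 and matplotlib 3.10.9 were used, and ratios and intervals were tested on simulated data.

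Members and gene lists were chosen with earlier results of these data known. Genes named were the 12 highest with at least 10 G325E peaks, the 12 lowest with at least 10 vector peaks, up to 3 members of each list by peak number with its largest rise and fall, the 5 largest changes of early share each way, and DDX3X. Other genes were named after their values were seen, and some that the rule names are not reported here. Scaling, pseudocount, minimum, length, region, strand, skipped numbers, repeats and host gene were varied.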

Additional observations from a re-analysis of the deposited data

Results flagged for a closer look

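The detailed annotation column, which no comparison above uses, differed between the lists in 2 ways. Rows placed in a repeat made up 1.85% of the G325E list (290 rows) and 0% of the vector and WT lists, above the upper limit of 0.0342% that 0 of 11219 vector rows leaves by Wilson's method. Of the 290, 159 were low-complexity sequence, 57 ribosomal RNA and 35 simple repeats.

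Rows placed in a CpG island outside exons made up 10.0% of the G325E list (1569 rows, Wilson interval 9.55 to 10.5) and 5.79% of the vector list (650 rows, 5.38 to 6.24). Most lay in introns: 72.1% of the 2053 intron rows in G325E and 54.3% of the 1110 in vector were in a CpG island, and 78.5% and 56.1% of intron rows were in the first intron. Their part in the results above was not tested beyond leaving out the repeat rows.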

How the results depend on the processing

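No paired analysis was possible because there was 1 library per construct. The 238 higher and 189 lower genes stayed within 1.5 times when scaled by the median ratio or within GC classes, by bases covered, with a pseudocount of 1, without intron rows, and, chosen after seeing the data, without repeat rows or with the RefSeq table for unpaired ids. They became 670 and 442 with a minimum of 5 peaks, 23 and 47 with 20, 138 and 116 with peaks of at least 20 bp, 123 and 107 on the gene's strand, 137 and 98 without genes where vector numbers are skipped, and 75 and 150 for genes listed in both; each of these tests fewer or more genes (2067, 259, 773, 695, 468 and 869). The early share difference on shared genes (8.54 points) became -0.0814 within GC classes and 15.3 over all rows, where genes listed once enter. Overlapping peaks became 27.1% of G325E and 37.9% of vector peaks with 0.5 of each peak covered, and 35.4% and 48.1% on either strand. The number of lists with a ratio above 1 ranged from 12 to 18, around 13.

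Without genes where vector numbers are skipped, ZNF genes reached a log2 ratio of 3.74 and HOX, SOX and FOX factors 3.46. Nuclear import and export factors reached 2.32 and stress granule proteins 0.52. RNA polymerase II and Mediator went from -0.29 to 1.32. SWI/SNF and NuRD remodellers went from -0.29 to 0.38, hnRNP proteins from -0.45 to 0.03, early-response factors from 0.37 to -0.11 and neuronal markers from 0.24 to -1.16. Proteasome subunits reached -1.44, endoplasmic reticulum chaperones -1.34 and nucleolar ribosome biogenesis factors -0.71. This setting leaves out genes with vector peaks more readily, since a peak bordering a gap is enough. Its ratios therefore cannot show what missing rows did.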

Other observations

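Chromosomes did not share peaks equally. Chromosome 13 had 90 vector and 221 G325E peaks (log2 ratio of scaled peaks 0.81) and chromosome 14 had 225 and 433 (0.46), while chromosome 12 had 604 and 631 (-0.42). Mitochondrial rows, which have no host gene and enter the values over all rows but no comparison of genes, numbered 96 in vector and 35 in G325E (-1.94).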
